A study of Mus musculus with 16 samples.

Results

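Myc and 7 genes of the network of proteins around its partner Max were followed in RAW264.7 cells, a mouse macrophage line that can be turned into osteoclasts, the cells that resorb bone. The 8 genes, Myc, Max, Mxd1, Mxd4, Mxi1, Mnt, Mlx and Mga, were taken by symbol from the 20490 genes of the table, and all 8 were found and expressed above the filter of the tests. The cells had attached for 12 h and then received phosphate-buffered saline (PBS), 10 ng/mL of RANKL, the cytokine that drives osteoclast formation, 30 µg/mL of extracellular vesicles (EV) shed by PC3M, a metastatic human prostate cancer line, or vesicles and RANKL together (EV+RANKL). RNA was taken after 48 h or 72 h, which gives 8 groups with 2 libraries each (n = 2 for every group below). Whether both libraries of a group are separate cultures is not in the labels. The p-values therefore speak only of how far these libraries differed, and that difference may be technical.

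MYC is a transcription factor that binds DNA as a pair with MAX, most strongly at the E-box letters CACGTG, and raises genes of ribosome building, nucleotide synthesis and metabolism. MXD1, MXD4, MXI1 and MNT pair with MAX at the same sites and bring in the SIN3 and histone deacetylase corepressors, so that they act against MYC. MGA also pairs with MAX, within a Polycomb repressor complex, and MLX is a MAX-like protein that pairs with some of the repressors and with the sugar-sensing factor MLXIP. In osteoclast formation MYC is known as a gene that RANKL switches on early and that is needed for NFATc1, the main osteoclast transcription factor, and for the metabolism of the forming cell.

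Promoter windows of 300 bases, from 250 before to 50 after the start, were matched for 7 of the 8 genes in RefSeq (GRCm38.p6); Myc was not matched. The Max and Mxd4 windows are printed because these genes differed along the same libraries at 72 h, and the Mga window because Mga rose at 48 h. The letters CACGTG, which read the same on both strands, are in capitals.
Max: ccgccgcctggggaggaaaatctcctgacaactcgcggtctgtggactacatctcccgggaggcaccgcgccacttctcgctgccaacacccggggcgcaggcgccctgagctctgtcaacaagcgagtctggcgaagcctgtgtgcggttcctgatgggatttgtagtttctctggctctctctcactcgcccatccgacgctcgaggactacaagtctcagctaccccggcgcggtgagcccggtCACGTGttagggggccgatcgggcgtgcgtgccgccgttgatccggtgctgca
Mxd4: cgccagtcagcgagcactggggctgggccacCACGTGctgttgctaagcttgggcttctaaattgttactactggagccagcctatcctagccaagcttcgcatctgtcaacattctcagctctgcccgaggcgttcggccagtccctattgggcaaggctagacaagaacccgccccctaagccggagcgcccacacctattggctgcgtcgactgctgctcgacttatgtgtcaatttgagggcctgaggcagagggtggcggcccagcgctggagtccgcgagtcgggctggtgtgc
Mga: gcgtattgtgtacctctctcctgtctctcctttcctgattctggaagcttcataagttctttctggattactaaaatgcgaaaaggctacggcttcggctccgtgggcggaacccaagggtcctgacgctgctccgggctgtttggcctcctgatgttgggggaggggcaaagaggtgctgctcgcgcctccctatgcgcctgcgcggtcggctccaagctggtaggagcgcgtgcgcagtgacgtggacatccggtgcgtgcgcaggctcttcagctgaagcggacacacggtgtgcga
The Max window lies on the minus strand at chr12:76962199-76962498, and its motif begins 3 bases before the start. The Mxd4 window lies on the minus strand at chr5:34187661-34187960, with the motif 219 bases before the start. The Mga window, on the plus strand at chr2:119896978-119897277, does not hold these letters. Mlx and Mnt hold 1 motif each, while Mxd1 and Mxi1 hold none in their windows. That is 4 of 7 member genes (57.1%), against 2187 of 27025 genes with a window (8.09%) and 8 of 31 listed genes that MYC is known to induce (25.8%). A match describes the letters only.

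Levels are given in RPKM, reads scaled by gene length and library depth, and log2 changes are differences of log2(RPKM + 1), each with its standard error. The estimated depth was 18300000 to 20020000 reads per library, at which 3 reads in 1 kb are worth 0.150 to 0.164 RPKM. The RNA came from whole cultures, so fewer cells expressing a gene and less RNA of it per cell cannot be told apart. The 7 listed macrophage markers summed to 1930 to 7716 RPKM per library, held mostly by Lyz2 and Cd68. Of the 7, 6 passed the filter of the tests, and Mrc1, at 0.0157 to 0.530 RPKM, did not. Osteoclast markers ranged from 17.5 to 1604 RPKM in sum. With PBS at 48 h Nfatc1 alone had a mean of 12.0 RPKM, while Calcr was at 0. Of the listed epithelial markers 4 of 8 were in the table, and of the stromal markers 5 of 7. None of them passed the filter, and their highest values were 0.252 RPKM for Met and 0.867 RPKM for Runx2. Of the other blood cell markers 4 of 9 were in the table, and S100a8 was highest, at 1.64 RPKM. At 72 h, 5 libraries stood apart: both EV, both EV+RANKL and RANKL replicate 2. The share of summed RPKM held by genes of ribosomal proteins was 10.1% to 10.6% there and 7.49% to 8.92% in the 11 others, a division seen in the data and not given by the labels. They hold all vesicle libraries of 72 h, so vesicles and this difference cannot be told apart there.

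Myc varied most among the 8 genes, 42.8-fold between its lowest and its highest library, and it was the gene that rose under RANKL at both times. At 48 h PBS libraries held 2.47 and 3.67 RPKM of Myc and EV libraries 7.51 and 14.9 RPKM. RANKL libraries held 28.4 and 48.7 RPKM, and EV+RANKL libraries 48.0 and 77.1 RPKM. The 4 groups followed that order without overlap, except that the lower EV+RANKL library lay just under the higher RANKL library. Here and below, how many of all tested genes held groups apart without overlap was not counted. In each of the 4 groups replicate 2 was above replicate 1. At 72 h Myc stood at 3.01 and 1.80 RPKM with PBS, 3.37 and 3.09 with EV, 8.78 and 13.5 with RANKL, and 18.3 and 15.3 with EV+RANKL. All 4 libraries with RANKL were above the 4 without it at either time.

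**Figure D1:**
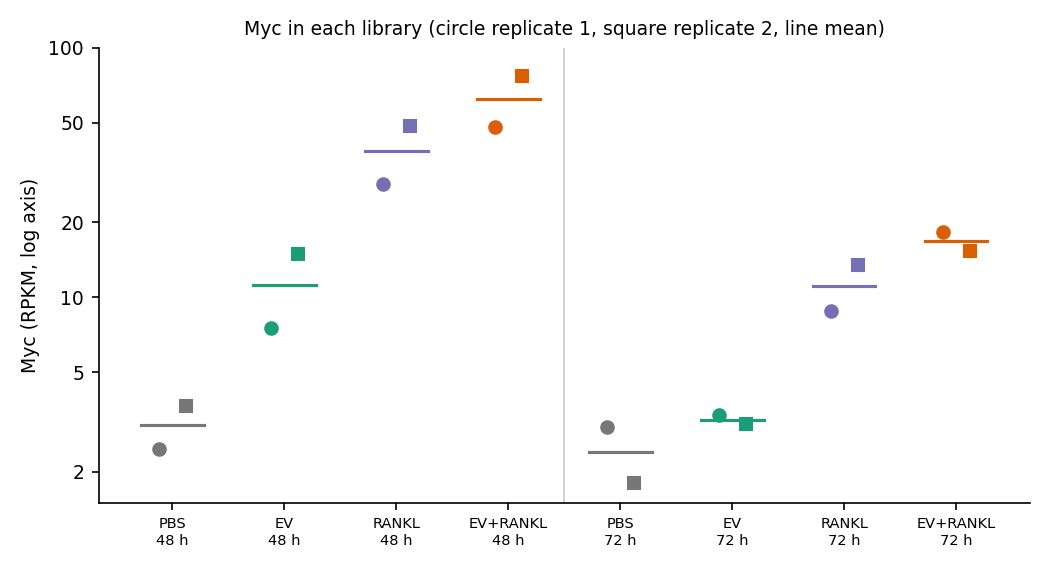
Myc level in RPKM (log axis) in each of the 16 libraries, by treatment and time; circles are replicate 1, squares replicate 2 and lines the mean of 2 libraries. Libraries with RANKL at 48 h lie between 28.4 and 77.1 RPKM, and those with PBS between 1.80 and 3.67 RPKM at either time.

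RANKL raised Myc at 48 h from 3.07 ± 0.85 to 38.5 ± 14.3 RPKM (SD), 12.5-fold in the means and 3.25 ± 0.33 on the log2 scale (limma adjusted p = 5.9e-05). At 72 h the rise was 4.62-fold in the means, 1.83 ± 0.33 in log2 (adjusted p = 0.00284). Each call held when any 1 library was left out, and at 72 h without RANKL replicate 2, which stood apart, the change was 1.55 (adjusted p = 0.0413). Among the 8 genes, 2 were called for RANKL against PBS at 48 h and 2 at 72 h, where 14.8% (6.47% higher, 8.29% lower) and 18.9% (9.73% higher, 9.13% lower) of the 10365 tested genes were called. They were Myc and Mga at 48 h and Myc and Mxd4 at 72 h, all higher. The RANKL response was larger at 48 h than at 72 h by value, but the test of that difference did not pass (-1.42 ± 0.47, unadjusted p = 0.0104, adjusted p = 0.29). For the change of the RANKL response with time 0.0289% of tested genes were called, and 0.0193% for that of the EV response, with 0 members in either.

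Vesicles without RANKL came with a smaller Myc rise at 48 h, from 3.07 to 11.2 ± 5.25 RPKM, 3.65-fold in the means and 1.53 ± 0.33 in log2 (adjusted p = 0.0448). Myc was the only 1 of the 8 genes called there, where 1.29% of tested genes were called (0.608% higher, 0.685% lower). This call was lost without PBS replicate 1 (adjusted p = 0.267), without PBS replicate 2 (0.167) and without EV replicate 2 (0.305). It was also lost with no filter on low values (0.164) and in a fit of the 48 h libraries alone (0.0509). The labels name no pairs. In a refit added after seeing the data, libraries of 48 h with the same number were taken as pairs, here and below. The data do not establish these pairs, so a call made only with this block rests on an assumption. With these pairs as a block the change was 1.53 ± 0.11. Replicate 2 held more Myc than replicate 1 in each group of 48 h, and the block takes out such a shift. At 72 h the EV change of Myc was 0.33, with a 95% interval of -0.39 to 1.06 (adjusted p = 0.487).

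Vesicles gave less Myc than RANKL, by -1.71 ± 0.33 at 48 h (adjusted p = 0.00863) and -1.49 ± 0.33 at 72 h (adjusted p = 0.00897). The first call was lost without EV replicate 1 (0.0889) or RANKL replicate 2 (0.103), and the second without RANKL replicate 2 (0.0549). In these comparisons 6.95% and 18.6% of tested genes were called. On top of RANKL, vesicles went with 1.62 times the mean Myc level at 48 h, 0.69 in log2 with an interval of -0.03 to 1.42 (adjusted p = 0.655). With the assumed pairs as a block, and 1 EV+RANKL library, it was 0.71. At 72 h the value was 0.58, interval -0.15 to 1.30 (adjusted p = 0.341). None of the 8 genes was called for EV+RANKL against RANKL at 48 h or 72 h, where 0.434% and 1.83% of tested genes were. At an unadjusted p under 0.05 the counts were 0 at 48 h and 1 at 72 h.

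EV+RANKL stood 20.4-fold above PBS in mean Myc at 48 h, 3.94 ± 0.33 in log2 (adjusted p = 7.1e-06), and 6.98-fold at 72 h, 2.40 ± 0.33 (adjusted p = 1.6e-04). Against EV it was higher by 2.41 ± 0.33 at 48 h (adjusted p = 8.2e-04) and 2.07 ± 0.33 at 72 h (adjusted p = 8.5e-04). These 4 calls held without any 1 library. The share of tested genes called was 22.1% (11.2% higher, 10.9% lower) and 41.9% (19.9% higher, 22.1% lower) against PBS, with 2 and 3 of the 8 members. Against EV it was 9.53% and 22%, with 1 member, Myc, at each time. The sum of the separate EV and RANKL responses did not differ from the joint response by the test, -0.84 ± 0.47 at 48 h (adjusted p = 1) and 0.24 ± 0.47 at 72 h (adjusted p = 0.906), where 0.00965% of tested genes were called at either time. The comparisons with PBS share its 2 libraries at each time.

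**Figure D2:**
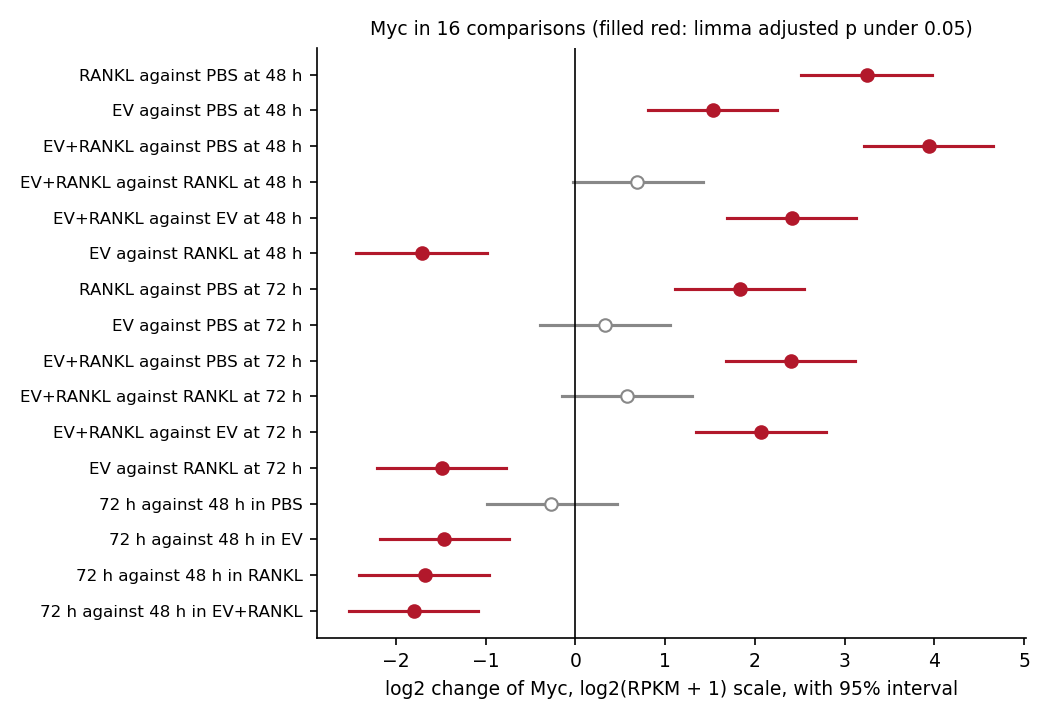
Log2 change of Myc on the log2(RPKM + 1) scale in 16 comparisons, with 95% intervals from limma; filled red points had an adjusted p under 0.05. The rise with RANKL is 3.25 at 48 h and 1.83 at 72 h, and the intervals of EV+RANKL against RANKL reach below 0.

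Between 48 h and 72 h Myc fell in all 3 treated groups and was not called in PBS. The fall was -1.46 ± 0.33 with EV (adjusted p = 0.00806), -1.68 ± 0.33 with RANKL (adjusted p = 0.0201) and -1.80 ± 0.33 with EV+RANKL (adjusted p = 0.00214). In the means it left 0.288, 0.289 and 0.268 of the level at 48 h. In PBS the change was -0.27, interval -0.99 to 0.46 (adjusted p = 0.834). The EV call was lost without EV replicate 2 of 48 h (0.0824) or EV replicate 1 of 72 h (0.0533). The RANKL call was lost without RANKL replicate 2 of 48 h (0.235) or of 72 h (0.0602), and with no filter on low values (0.0771). Over time 32.3% of tested genes changed with EV (17.4% higher, 14.9% lower), 6.03% with RANKL (3.45% higher, 2.58% lower), 38.9% with EV+RANKL (17.4% higher, 21.5% lower) and 0.646% with PBS (0.145% higher, 0.502% lower). Of the 8 members 4, 2, 3 and 0 did. In PBS, 2 members were higher at an unadjusted p under 0.05.

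By group means the order of Myc was EV+RANKL 48 h (62.5 RPKM), RANKL 48 h (38.5), EV+RANKL 72 h (16.8), EV 48 h (11.2), RANKL 72 h (11.1), EV 72 h (3.23), PBS 48 h (3.07) and PBS 72 h (2.41). Libraries of neighbours in this order overlapped for EV+RANKL and RANKL at 48 h, EV 48 h and RANKL 72 h, EV 72 h and PBS 48 h, and PBS at both times. In PBS libraries Myc ranked 6 or 7 among the 8 members, and in the 4 RANKL-treated libraries of 48 h it ranked 2, after Max. In PBS replicate 1 of 48 h the Myc level exceeded that of 21.8% of the tested genes, and in EV+RANKL replicate 2 of 48 h that of 94.3%. Against the summed level of the 4 repressors Mxd1, Mxd4, Mxi1 and Mnt, Myc was 0.117 and 0.158 in PBS at 48 h, 1.18 and 1.98 with RANKL, and 2.02 and 3.30 with EV+RANKL. At 72 h this ratio was 0.0874 and 0.0810 with PBS, 0.286 and 0.467 with RANKL, and 0.594 and 0.492 with EV+RANKL.

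Mycn, the sister gene of Myc, was expressed at 82.3 to 128 RPKM in all 16 libraries, above Myc in each. It was 126 and 106 RPKM with PBS at 48 h and 102 and 82.3 with RANKL. The change was -0.33 ± 0.14 (adjusted p = 0.127), and -0.32 ± 0.14 with EV+RANKL (adjusted p = 0.121). With the pairs as a block Mycn was called as lower with RANKL. The summed level of Myc and Mycn was 128 and 110 RPKM with PBS at 48 h, 130 and 131 with RANKL, and 152 and 159 with EV+RANKL. Myc made up 1.93% and 3.35% of that sum with PBS at 48 h, 21.8% and 37.2% with RANKL, and 31.6% and 48.4% with EV+RANKL. Mycl, the third gene of the family, was at 0 to 0.0265 RPKM in the 8 libraries without RANKL and at 0.154 to 0.758 RPKM in the 8 libraries with it, with no overlap. It did not pass the filter and has no test here.

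Max, the shared partner, was the most abundant member and held a flat level at 48 h. The 8 libraries of 48 h lay between 70.3 and 77.9 RPKM, and the RANKL change was 0.00, interval -0.24 to 0.24 (adjusted p = 0.998). At 72 h Max was 70.9 and 78.4 RPKM with PBS, 46.4 and 53.4 with EV, 73.3 and 58.7 with RANKL, and 52.7 and 54.5 with EV+RANKL. The 5 libraries of 72 h that stood apart ran from 46.4 to 58.7 RPKM and the 11 others from 70.3 to 78.4 RPKM, with no overlap. How many of all tested genes divided along these libraries was not counted. The division is therefore not shown to be particular to Max, or to Mxd4 below. RANKL replicates 1 and 2 of 72 h, under the same label, fell on different sides.

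Max was lower at 72 h with EV against PBS by -0.57 ± 0.11 (adjusted p = 0.0116) and with EV+RANKL by -0.47 ± 0.11 (adjusted p = 0.00547). With RANKL it was -0.18 ± 0.11 (adjusted p = 0.294), and -0.02 (adjusted p = 0.938) without the RANKL library that stood apart. The EV call was lost without PBS replicate 2 (0.12) or EV replicate 1 (0.0813), and in a fit of the 72 h libraries alone (0.0968). The EV+RANKL call was lost without PBS replicate 2 (0.0526). EV was also below RANKL at 72 h, by -0.39 ± 0.11 (adjusted p = 0.0302), a call lost without EV replicate 1 (0.18) or RANKL replicate 1 (0.183) and in a fit of 72 h alone (0.156). Over time Max fell with EV by -0.55 ± 0.11 (adjusted p = 0.00568; 0.0542 without EV replicate 1 of 72 h). With EV+RANKL it fell by -0.46 ± 0.11 (adjusted p = 0.00807), lost without EV+RANKL replicate 2 of 48 h (0.0824) or replicate 1 of 72 h (0.064). The EV response was not called as different between the times (-0.59 ± 0.16, unadjusted p = 0.0029, adjusted p = 0.154), and became so without EV replicate 2 of 72 h (0.0233).

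Mxd4, a repressor of the MXD family, was low at 48 h and higher at 72 h in every group but PBS. The 8 libraries of 48 h held 1.40 to 2.09 RPKM. At 72 h Mxd4 was 1.59 and 1.29 RPKM with PBS, 4.61 and 3.72 with EV, 3.24 and 5.99 with RANKL, and 5.38 and 6.71 with EV+RANKL. The 5 libraries that stood apart were the 5 highest, at 3.72 to 6.71 RPKM, and RANKL replicate 1 of 72 h, which was not among them, came next at 3.24 RPKM. Every treated library of 72 h was thus above all PBS libraries.

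**Figure D3:**
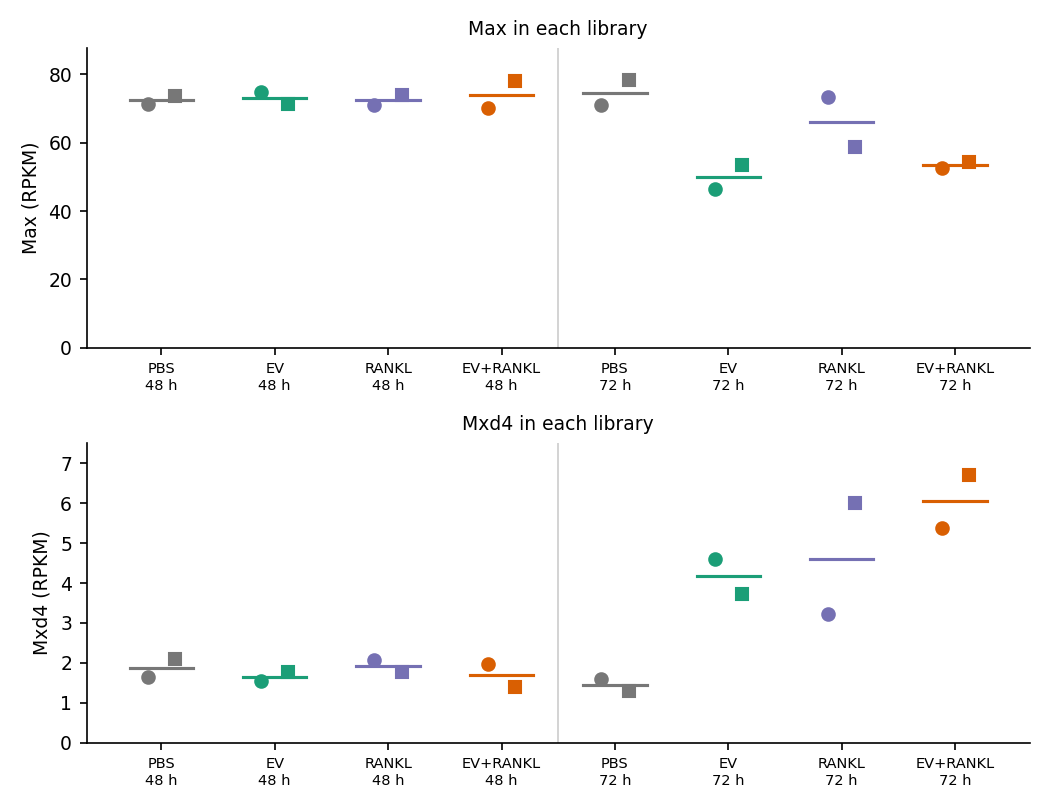
Max (top) and Mxd4 (bottom) in RPKM in each of the 16 libraries, with lines at the mean of 2 libraries. The 5 libraries of 72 h with a high ribosomal protein share hold 46.4 to 58.7 RPKM of Max and 3.72 to 6.71 RPKM of Mxd4. The 11 others hold 70.3 to 78.4 and 1.29 to 3.24 RPKM. How many other genes divide in this way was not counted.

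Against PBS at 72 h Mxd4 rose 3.20-fold in the means with RANKL, 1.16 ± 0.20 in log2 (adjusted p = 0.00201), and without the RANKL library that stood apart by 0.80 (adjusted p = 0.021). It rose 2.89-fold with EV, 1.08 ± 0.20 (adjusted p = 0.0104), and 4.19-fold with EV+RANKL, 1.52 ± 0.20 (adjusted p = 1.1e-04). Of tested genes 18.3% were called for EV (10.4% higher, 7.83% lower), and 2 of the 8 members, Mxd4 and Max. The EV call was lost without PBS replicate 2 (0.11) or EV replicate 1 (0.078) and in a fit of 72 h alone (0.0762), while the EV+RANKL call held without any 1 library. What the higher ribosomal protein share has to do with the Max and Mxd4 values was not tested.

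Over time Mxd4 rose by 0.95 ± 0.20 with EV (adjusted p = 0.00602), 0.90 ± 0.20 with RANKL (adjusted p = 0.0308) and 1.39 ± 0.20 with EV+RANKL (adjusted p = 0.00114), and in PBS its change was -0.23 (adjusted p = 0.731). The EV call was lost without EV replicate 1 of 72 h (0.0605). The RANKL call was lost without RANKL replicate 1 (0.0723) or 2 (0.249) of 48 h or RANKL replicate 2 of 72 h (0.154), and with no filter on low values (0.0895). The RANKL response differed between the times by 1.13 ± 0.28 (adjusted p = 0.203) and the EV response by 1.18 ± 0.28 (adjusted p = 0.138). These tests passed without RANKL replicate 1 (0.0107) and without EV replicate 2 (0.0244) of 72 h.

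The ratio of Mxd4 to Max, both in RPKM, was 0.0179 to 0.0292 in the libraries of 48 h and 0.0697 to 0.123 in the 5 libraries that stood apart. Mxd4 overlaps the exons of a gene on the opposite strand, Gm42846, and the labels do not say whether counting used strand, so its reads may include that gene's.

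Mga, the MAX partner of the Polycomb complex, rose with RANKL at 48 h. Its libraries held 6.98 and 7.15 RPKM with PBS, 7.38 and 7.77 with EV, 9.29 and 9.59 with RANKL, and 9.52 and 9.06 with EV+RANKL. The 4 RANKL-treated libraries were above the 4 others with no overlap. The change was 0.37 ± 0.09 with RANKL (adjusted p = 0.0119) and 0.35 ± 0.09 with EV+RANKL (adjusted p = 0.0115), a 1.34-fold and 1.32-fold rise of the means. Leaving out any 1 of the 4 libraries took the RANKL value to an adjusted p of 0.053 to 0.0922. The EV+RANKL call was lost without either PBS library (0.0744 and 0.0556) or EV+RANKL replicate 1 (0.0928).

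Against EV at 48 h Mga was higher with EV+RANKL by 0.26 ± 0.09 (adjusted p = 0.083), and EV was lower than RANKL by -0.28 ± 0.09 (adjusted p = 0.0723). With the pairs as a block these were 0.32 (adjusted p = 0.0351) and -0.28 (adjusted p = 0.017). At 72 h all groups lay between 7.54 and 9.30 RPKM, and no comparison of Mga was called.

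Of the other repressors, Mxi1 was called once and Mxd1 and Mnt in none of 20 comparisons. Mxi1 held 7.80 to 9.24 RPKM in the 8 libraries of 48 h. At 72 h it was 14.4 and 8.52 RPKM with PBS, 14.5 and 13.2 with EV, 10.6 and 10.3 with RANKL, and 12.0 and 11.6 with EV+RANKL. It rose over time with EV by 0.56 ± 0.16 (adjusted p = 0.021), lost without EV replicate 1 (0.0812) or 2 (0.0961) of 48 h or EV replicate 1 of 72 h (0.128), and with no filter on low values (0.0607). The 2 PBS libraries of 72 h spanned nearly the whole range of the gene.

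Mxd1, a repressor linked to differentiating blood cells, was at 0.745 to 1.25 RPKM at 48 h and at 1.37 to 3.35 RPKM at 72 h, so that every library of 72 h was above all of 48 h. The changes over time were 0.61 ± 0.21 in PBS (adjusted p = 0.273), 0.56 ± 0.21 with EV (0.0576), 0.24 ± 0.21 with RANKL (0.467) and 0.43 ± 0.21 with EV+RANKL (0.123). PBS replicates 1 and 2 of 72 h were at 3.35 and 1.37 RPKM. Without replicate 2 the PBS change was 1.05 (adjusted p = 0.00531) for Mxd1 and 0.75 (adjusted p = 0.00418) for Mxi1.

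Without that same library Mxd1 was also lower than PBS at 72 h with RANKL (-0.80, adjusted p = 0.00725) and with EV+RANKL (-0.78, adjusted p = 0.00345), and Mxi1 with RANKL (-0.43, adjusted p = 0.021). Without PBS replicate 1 instead, Mxi1 was higher with EV (0.64, adjusted p = 0.00633) and EV+RANKL (0.43, adjusted p = 0.00842). For Mxd1 and Mxi1 these calls thus turned on which PBS library was kept. Mxi1 overlaps exons of Gm10197 on the opposite strand.

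Mnt, the broadly expressed MAX-binding repressor, stayed within 9.60 to 15.3 RPKM, 1.59-fold over all libraries. At 48 h it was 10.4 and 11.5 RPKM with PBS and 12.3 and 13.3 with RANKL. The change was 0.21 ± 0.17 (adjusted p = 0.456), and with the pairs as a block 0.21 ± 0.06 (adjusted p = 0.0409). Mlx stayed within 15.5 to 21.1 RPKM, 1.37-fold. At 48 h it was 19.4 and 19.3 RPKM with PBS, 17.3 and 16.7 with EV, 17.9 and 18.1 with RANKL, and 15.5 and 18.2 with EV+RANKL. Both PBS libraries were the highest of 48 h. Against PBS the EV+RANKL change of Mlx was -0.19 ± 0.11 (adjusted p = 0.248), and -0.31 ± 0.07 (adjusted p = 0.018) with the pairs as a block and 1 EV+RANKL library. Mlx overlaps exons of Psmc3ip on the opposite strand.

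**Figure D4:**
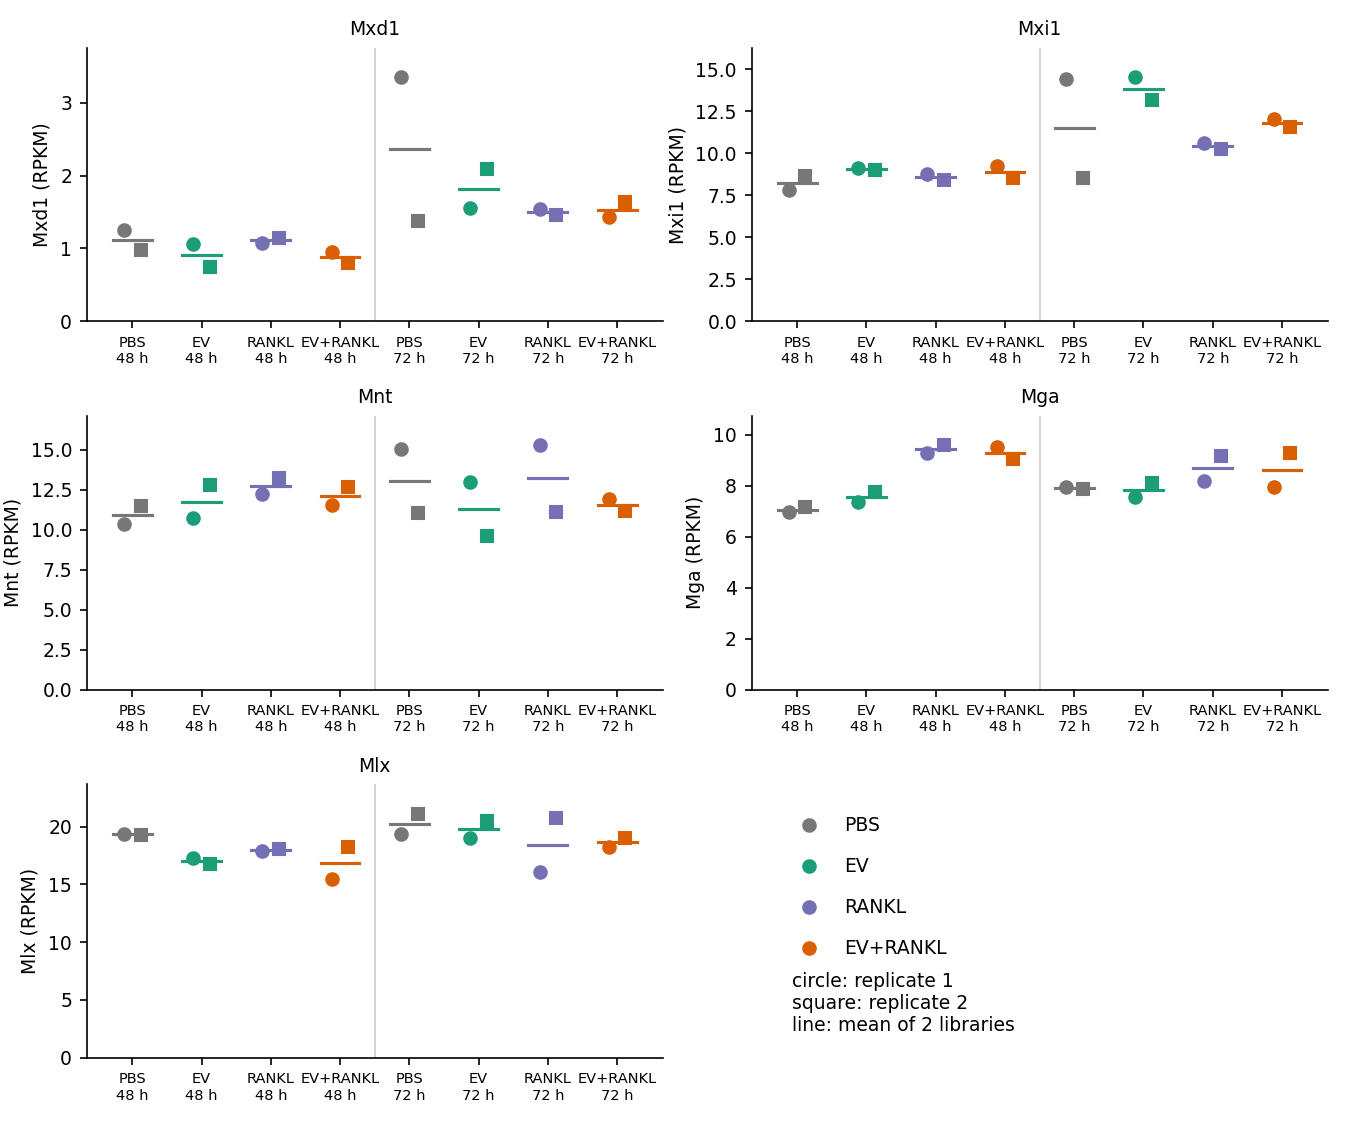
Mxd1, Mxi1, Mnt, Mga and Mlx in RPKM in each of the 16 libraries; circles are replicate 1, squares replicate 2 and lines means of 2 libraries. Mga is at 9.06 to 9.59 RPKM in the RANKL-treated libraries of 48 h and 6.98 to 7.77 RPKM in the others of that time, and the PBS libraries of 72 h lie apart in Mxd1 (3.35 and 1.37 RPKM) and Mxi1 (14.4 and 8.52 RPKM).

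A further list of 8 held other genes of the MAX and MLX network and related E-box factors, among them Mitf and Usf1. Of these 8 genes 6 passed the filter, and the counts below are of this mixed list. With RANKL at 48 h 1 was higher and 0 lower, where 6.47% and 8.29% of all tested genes were. That gene was Mitf, a related factor of osteoclasts and pigment cells, at 10.1 and 12.7 RPKM with PBS and 14.9 and 16.3 with RANKL (0.43 ± 0.12, adjusted p = 0.0261). The call was lost without PBS replicate 1 or either RANKL library. Mitf was higher with RANKL at 72 h (0.79 ± 0.12, adjusted p = 8.3e-04) and with EV+RANKL at 48 h (0.81 ± 0.12, adjusted p = 2.6e-04) and 72 h (1.11 ± 0.12, adjusted p = 2.2e-05). With EV at 72 h 2 of the 6 were higher, where 10.4% of all tested genes were. They were Mitf (0.55 ± 0.12, adjusted p = 0.013) and the E-box factor Usf1 (0.33 ± 0.09, adjusted p = 0.0307). Usf1 was then at 8.97 and 9.88 RPKM, against 7.70 and 6.89 RPKM with PBS. Both calls were lost without PBS replicate 2 or EV replicate 1 and in a fit of 72 h alone, and that of Usf1 also without EV replicate 2 and with no filter on low values. Mlxip, the partner of MLX, was higher with EV+RANKL at 72 h (0.33 ± 0.08, adjusted p = 0.00558), at 13.1 and 12.7 RPKM against 9.72 and 10.4 with PBS. Mlxipl was at 0 to 0.00945 RPKM, and Mxd3, a further repressor, changed by -0.29 ± 0.16 with RANKL at 48 h (adjusted p = 0.268).

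Of 40 listed genes that MYC is known to induce, 38 were tested, and 0 were called for RANKL against PBS at 48 h (14.8% of all tested genes), when Myc was 12.5-fold higher. By unadjusted p under 0.05, 3 were higher and 1 lower, and the list's median change was 0.15 against 0.06 for all tested genes. The smallest p was that of Shmt1, an enzyme of folate metabolism, at 8.19 and 8.60 RPKM with PBS and 12.5 and 13.0 with RANKL (0.55 ± 0.19, adjusted p = 0.0683). Next came Odc1, the first enzyme of polyamine synthesis (-0.37 ± 0.15, adjusted p = 0.116), and the transcription factor Tfap4 (0.41 ± 0.18, adjusted p = 0.15).

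With the pairs as a block in the 48 h libraries, 10 MYC-induced targets were higher and 1 lower under RANKL. The higher ones were Shmt1, Mrto4, Tfap4, Hspd1, Wdr43, Mthfd2, Polr1b, C1qbp, Ppat and Cad, and Odc1 was lower. A fit of the 48 h libraries alone without the block gave 9 higher and 1 lower. The count at 48 h therefore depended on whether the libraries of 72 h shared in the estimate of the spread. For these refits and those that leave out 1 library, here and below, the share of all tested genes called was not counted. Their counts therefore do not speak of the listed genes in particular. The changes themselves were small beside that of Myc: Mrto4, a ribosome assembly factor, was 0.32 ± 0.16, and the chaperone Hspd1 0.30 ± 0.15.

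With EV at 48 h 0 of the 38 were called (0 at an unadjusted p under 0.05, median 0.08 against 0.03), and 1 was higher with the pairs as a block. Of all tested genes 1.29% were called for EV. With EV+RANKL 2 were higher and 1 lower, where 11.2% of all tested genes were higher and 10.9% lower. The higher ones were Shmt1 (0.89 ± 0.19, adjusted p = 0.00424) and C1qbp, a mitochondrial matrix protein (0.33 ± 0.10, adjusted p = 0.031). The lower one was Odc1 (-0.47 ± 0.15, adjusted p = 0.0386). By unadjusted p under 0.05, 11 were higher and 1 lower, and the list's median was 0.20 against 0.07 for all tested genes. With the pairs as a block 7 were higher and 1 lower, and in a fit of 48 h alone 16 and 1. Without any 1 of the 4 libraries 1 was higher, and Odc1 was called only without PBS replicate 2.

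At 72 h, with Myc still 4.62-fold above PBS under RANKL, 0 of the 38 MYC-induced targets were higher and 5 lower, where 9.73% of all tested genes were higher and 9.13% lower. The lower genes were Slc7a5, an amino acid transporter (-0.88 ± 0.15, adjusted p = 0.00197), Odc1 (-0.69 ± 0.15, adjusted p = 0.00701), the lactate enzyme Ldha (-0.54 ± 0.14, adjusted p = 0.0171), the folate enzyme Mthfd2 (-0.71 ± 0.20, adjusted p = 0.029) and the cap-binding factor Eif4e (-0.48 ± 0.15, adjusted p = 0.049). The count was 2 without PBS replicate 1 or RANKL replicate 2 and in a fit of 72 h alone. With EV 0 were higher and 12 lower, where 7.83% of all tested genes were lower. The lower count was 0 without PBS replicate 2 or EV replicate 1 and in a fit of 72 h alone, and 25 without EV replicate 2. With EV+RANKL 0 were higher and 14 lower, where 22.1% of all tested genes were lower. That count was 6 without EV+RANKL replicate 1, 8 without PBS replicate 2 and 7 in a fit of 72 h alone. The last 2 comparisons lie wholly across the libraries with the high ribosomal protein share (10.1% to 10.6%).

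Over time with EV+RANKL 2 of the 38 were higher and 25 lower, with a median of -0.56 against -0.02 for all tested genes, of which 17.4% were higher and 21.5% lower. Slc7a5 fell from 29.0 and 32.5 RPKM in the EV+RANKL libraries of 48 h to 11.1 and 13.1 RPKM (-1.28 ± 0.15, adjusted p = 9.3e-04). Shmt1 fell by 0.65 on the log2 scale (adjusted p = 0.0173), while Ldha (0.42 ± 0.14, adjusted p = 0.0317) and Eif4ebp1, a brake on translation (0.77 ± 0.27, adjusted p = 0.0393), rose. The count of lower genes was 11 without EV+RANKL replicate 2 of 48 h, 12 without replicate 1 of 72 h and 17 with the replicate number as a block. That of higher genes was 1 without replicate 2 of 72 h and 0 without any of the other 3 libraries or with the block.

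With EV 4 were higher and 18 lower over time (median -0.40 against 0.02), where 17.4% of all tested genes were higher and 14.9% lower. The lower count was 2 without EV replicate 1 of 72 h, 10 without either EV library of 48 h and 29 without EV replicate 2 of 72 h. For the change of the EV response with time 0 of the 38 were called, where 0.0193% of all tested genes were. At an unadjusted p under 0.05, 0 were higher and 14 lower. The count called moved when EV replicate 2 of 72 h was left out, which leaves 1 EV library there. With RANKL 1 was lower, where 2.58% of all tested genes were, namely Slc7a5 (-0.73 ± 0.15, adjusted p = 0.025), and 0 without RANKL replicate 1 or 2 of 48 h or RANKL replicate 2 of 72 h and 4 without RANKL replicate 1 of 72 h. By unadjusted p under 0.05, 0 were higher and 14 lower with RANKL, and the list's median was -0.27 against -0.02 for all tested genes. In PBS 0 changed (5 higher and 1 lower at an unadjusted p under 0.05), with a median of -0.01. These lower counts stand beside the fall of Myc and the ribosomal protein share of 10.1% to 10.6% in 5 libraries of 72 h, and the part of either was not tested.

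**Figure D5:**
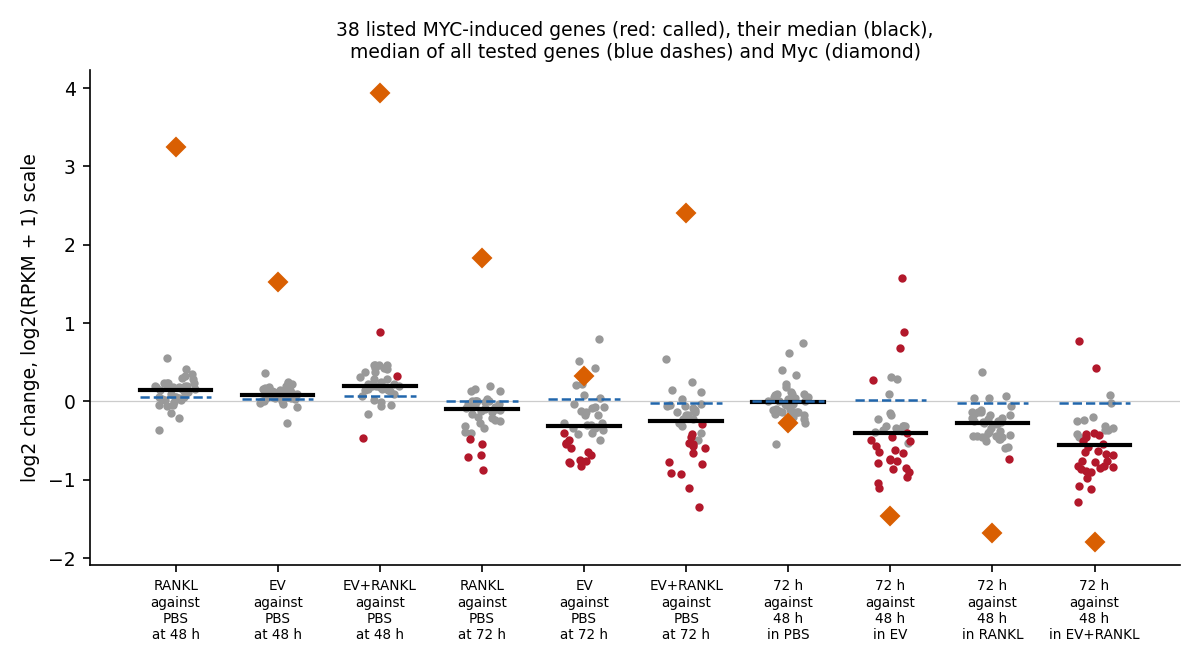
Log2 change of the 38 tested MYC-induced targets in 10 comparisons (points, red where the adjusted p was under 0.05), their median (black line), the median of all tested genes (blue dashes) and Myc (orange diamond). The list's median is 0.15 for RANKL at 48 h, where Myc is at 3.25, and -0.56 over time with EV+RANKL, where Myc is at -1.80.

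Of 12 tested genes that MYC is known to repress, 1 was higher and 2 lower with RANKL at 48 h. Of all tested genes 6.47% were higher and 8.29% lower there. Cebpa, a myeloid transcription factor, was at 9.94 and 11.7 RPKM with PBS and 5.59 and 6.83 with RANKL (-0.71 ± 0.18, adjusted p = 0.0159). Klf6, a growth-limiting transcription factor, was also lower (-0.71 ± 0.21, adjusted p = 0.0362), and Cdkn1b, the cell cycle inhibitor p27, was higher (0.64 ± 0.15, adjusted p = 0.0141). The lower count was 0 without PBS replicate 2 or RANKL replicate 1 or with no filter on low values, and the Cdkn1b call was lost without either PBS library or RANKL replicate 1. With the pairs as a block 6 were lower, among them Cdkn1a, Ndrg1, Gadd45g and Zfp36l1, and 1 higher. With EV at 48 h 1.29% of all tested genes were called. Of the 12 the 1 called gene was Zfp36l1, an RNA decay factor (-1.49 ± 0.25, adjusted p = 0.0128). Its call was lost without any 1 of the 4 libraries.

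With EV+RANKL at 48 h 1 of these 12 was higher and 5 lower, where 11.2% and 10.9% of all tested genes were. The lower count was 2 without PBS replicate 2 or EV+RANKL replicate 1, and the higher count 0 without the latter. At 72 h RANKL had 1 higher and 3 lower, where 9.73% of all tested genes were higher and 9.13% lower. Leaving out PBS replicate 1 gave 3 higher and 1 lower, PBS replicate 2 gave 0 and 5, and RANKL replicate 2 gave 0 and 1. With EV at 72 h 3 were higher (Btg1, Btg2 and Klf4) and 2 lower (Zfp36l1 and Cdkn1a), where 10.4% and 7.83% of all tested genes were. These counts were 7 and 0 without PBS replicate 1, 0 and 1 without PBS replicate 2 or EV replicate 1, and 0 and 0 in a fit of 72 h alone or with no filter on low values. Over time with EV 6 were higher and 1 lower, where 17.4% and 14.9% of all tested genes were. These counts were 3 and 0 without EV replicate 1 of 72 h, 4 and 0 without EV replicate 2 of 48 h and 7 and 3 without EV replicate 2 of 72 h. Over time with EV+RANKL 5 were higher and 1 lower, where 17.4% and 21.5% of all tested genes were, and 2 were higher without EV+RANKL replicate 2 of 48 h or replicate 1 of 72 h. The 5 were the growth-limiting genes Btg2 (1.38 ± 0.25, adjusted p = 0.00196), Btg1, Ndrg1, Cdkn1b and Ccng2.

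The 5 listed targets of MLX and MLXIP were all tested. For RANKL at 48 h 2 were called, where 14.8% of all tested genes were. With RANKL at 48 h Klf10, a transforming growth factor response gene, was higher (0.62 ± 0.13, adjusted p = 0.00738). Txnip, a brake on glucose uptake, was lower, from 118 and 123 RPKM to 55.4 and 72.8 (-0.91 ± 0.21, adjusted p = 0.00984). The Klf10 call was lost without PBS replicate 1 or RANKL replicate 2, and that of Txnip without either PBS library or RANKL replicate 2. At 72 h Txnip was 105 and 113 RPKM with PBS and 97.4 and 140 with RANKL, and its rise over time with RANKL was 0.87 ± 0.21 (adjusted p = 0.0344), lost without either RANKL library of 48 h or RANKL replicate 2 of 72 h. At 72 h 3 were higher with RANKL and 1 lower, where 9.73% of all tested genes were higher and 9.13% lower. The higher ones were the arrestin-like Arrdc4 (1.04 ± 0.17, adjusted p = 0.00149) and Arrdc2 (0.53 ± 0.13, adjusted p = 0.0119) and Klf10 (0.78 ± 0.13, adjusted p = 0.00199). The glycolysis regulator Pfkfb3 was lower (-1.17 ± 0.28, adjusted p = 0.0115), lost without PBS replicate 1 or RANKL replicate 2, and the Arrdc2 call was lost without PBS replicate 2. At 48 h Arrdc2 had been at 0.27 ± 0.13 (adjusted p = 0.174).

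Partners and regulators of the network were also counted with RANKL at 48 h, where 14.8% of all tested genes were called. Of 13 tested SIN3 and HDAC corepressor genes 1 was higher, the scaffold Sin3a, at 21.3 and 22.9 RPKM with PBS and 30.2 and 31.1 with RANKL (0.46 ± 0.10, adjusted p = 0.0106). The call was lost without PBS replicate 1 or either RANKL library, and 5 were higher with the pairs as a block. Next came the histone-binding Rbbp4 (0.27 ± 0.12, adjusted p = 0.173) and the deacetylase Hdac2 (0.29 ± 0.14, adjusted p = 0.179). Of 14 tested genes of MYC protein stability 0 were called, with 1 higher at an unadjusted p under 0.05, the kinase Aurka (0.39 ± 0.16, adjusted p = 0.13), and 4 higher with the block. The deubiquitinase Usp37 (0.23 ± 0.12, adjusted p = 0.212) and Set (0.31 ± 0.17, adjusted p = 0.259) followed. Of 16 MYC coactivators 0 were called, 0 by unadjusted p, and 3 were higher with the block. The smallest p was that of Trrap, a scaffold of acetyltransferase complexes (0.18 ± 0.09, adjusted p = 0.175), followed by Actl6a (0.21 ± 0.12, adjusted p = 0.25) and Ccnt1 (0.18 ± 0.10, adjusted p = 0.259). Of 13 genes of the MGA complex 0 were called, 0 by unadjusted p, and with the block 1 was higher and 1 lower. The smallest p there was that of Pcgf6, its Polycomb ring finger subunit (0.37 ± 0.18, adjusted p = 0.193), followed by Rnf2 (0.16 ± 0.09, adjusted p = 0.271) and Yaf2 (0.20 ± 0.12, adjusted p = 0.271).

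Among genes of osteoclast metabolism and regulation linked to MYC, Nfatc1 and Ppargc1b were higher with RANKL at 48 h. Nfatc1 was at 11.98 ± 1.38 RPKM with PBS, 46.7 and 49.7 with EV, 93.9 and 101 with RANKL, and 141 and 147 with EV+RANKL, an order without overlap. The RANKL change of Nfatc1 was 2.93 ± 0.17 (adjusted p = 7.2e-07). The mitochondrial coactivator Ppargc1b changed by 0.37 ± 0.11 (adjusted p = 0.0357). Its call was lost without PBS replicate 2 or either RANKL library, with no filter on low values and with median centring, while that of Nfatc1 held in each of these. Between 48 h and 72 h with RANKL, while Myc fell to 0.289 of its level, Nfatc1 was at 97.6 ± 5.35 and 101 ± 13.9 RPKM (0.04, interval -0.32 to 0.39, adjusted p = 0.904).

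The genes whose pattern was most like that of Myc were sought over the 8 group means of log2(RPKM + 1), among 1169 genes that reached 5 RPKM in a group and varied by at least 1 in log2 between groups. The 5 highest Pearson correlations were those of the homeobox gene Hmx2 (0.9826), the actin-binding Tpm1 (0.9804), the neuropilin Nrp2 (0.9688), Gm12953 (0.9502) and the immediate early gene Fos (0.9497). Hmx2 was at 1.10 RPKM with PBS, 2.88 with EV, 5.21 with RANKL and 6.65 with EV+RANKL at 48 h, and at 1.27, 1.31, 3.56 and 4.24 RPKM at 72 h. The 5 lowest were those of Mpeg1 (-0.9925), a pore-forming protein of macrophages, Tifab (-0.9821), Metrnl (-0.9803), the potassium channel Kcnj2 (-0.977) and the lysosomal thioesterase Ppt1 (-0.975). Mpeg1 was at 121, 59.7, 19.9 and 11.8 RPKM in PBS, EV, RANKL and EV+RANKL at 48 h and at 118, 133, 53.3 and 42.2 RPKM at 72 h. The 8 means share their libraries between genes, so these values describe likeness only.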

How the data were processed

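Total RNA of pelleted cells went into libraries made with a TruSeq kit for messenger RNA, per the labels' protocols. FastQC, HISAT2 and Partek were used, per the submitters' processing notes, which name the human builds GRCh38 and hg38. For the mouse build, the annotation and the counting, the entry is: not given in the sources used here. Of 20490 gene names, 19040 (92.9%) are in the mouse GENCODE M21 annotation. From the numbers themselves, the authors' deposited values were read as log2(RPKM + 1), since no source names their unit. With base 2, 82.8% of 9931 low values of 1932 single-exon genes were within 0.05 reads of a whole number, against 70.6% with base e and 40.2% with base 10. No table column was left unused. The column of 1 EV+RANKL library of 48 h lacks the letter for RANKL, and only its group was inferred. It is called replicate 2 because replicate 1 has its own column.

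All 16 libraries entered 1 limma 3.58.1 fit (R 4.3.3) with 8 group means and a variance trend. The test covered the 10365 genes that reached 1 RPKM in 2 libraries, and p-values were adjusted over all of them by Benjamini-Hochberg in each comparison, with a threshold of 0.05. Changes of genes near 1 RPKM are understated on this scale. Tested on simulated data of the same 10365 genes, RANKL against PBS at 48 h gave back 39 of 67 changed genes at a log2 change of 0.5, 60 of 67 at 1 and 66 of 66 at 2. It made 15 false calls. The simulated libraries varied independently, without shared deviations or libraries that stood apart, and no other genes were changed. Recovery and false calls in the real libraries may therefore differ.

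Deviations from the group mean of libraries with the same number correlated over genes at 0.334, 0.165 and 0.248 between PBS, EV and RANKL at 48 h. These numbers were taken as pairs from these values, not from the labels. Between groups of different times the values ran from -0.04 (PBS at 48 h with EV at 72 h) to 0.272 (RANKL at 48 h with EV at 72 h). Since 0.165 and 0.248 lie below 0.272, the correlations do not establish the pairs. At 72 h the 3 pairs among PBS, EV and EV+RANKL gave 0.398 to 0.529, but the 3 pairs with RANKL gave -0.04 to 0.08, so the numbers were not taken as pairs. The block fits leave out the library without the letter.

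The members and lists were chosen with earlier results of these data known. All 8 members are named. The lists were other MAX and MLX network genes with related E-box factors, MYC-induced targets, MYC-repressed targets, and MLX and MLXIP targets. They also were MYC protein stability, MYC coactivators, SIN3 and HDAC corepressor, and MGA complex. Of each list the rule takes the 3 genes of smallest adjusted p for RANKL against PBS at 48 h. It also takes the called genes where 5 or fewer are called. A further list, of osteoclast metabolism, is given by 2 of its genes and without counts, since 1 item is not reported here. The rule also takes the 5 highest and 5 lowest correlations with Myc. Other list genes named as examples were chosen after their values were seen. Slc7a5 and Wdr5 are each in 2 lists, and Nfatc1 is also an osteoclast marker.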

Additional observations from a re-analysis of the deposited data

How the results depend on the processing

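Of 160 comparisons of the 8 genes 26 were called, and in 294 refits of these 26 the call and direction were kept in 248, the call was lost in 46 and the direction turned in 0. Of 1638 refits of uncalled comparisons, 23 passed the threshold. The share of all tested genes called in each comparison of the main fit ran from 0.00965% to 41.9%. For the refits this share was not counted, so their counts do not speak of the 8 members in particular. The number of members called moved by over 1.5 times as follows, and smaller moves are not listed. With no filter on low values it was 0 for EV against PBS at 48 h and 0 over time with RANKL. With median centring, where the medians of tested log2 values had ranged from 3.02 to 3.14 between libraries, it was 2 for EV+RANKL against EV and 2 for EV against RANKL at 48 h. In fits of the libraries of 1 time it was 0 for EV against PBS at 48 h, 2 for EV+RANKL against EV and 2 for EV against RANKL at 48 h, 0 for EV against PBS at 72 h and 1 for EV against RANKL at 72 h. With the replicate block within 1 time, added after seeing the data, it was 1 for EV+RANKL against RANKL, 2 for EV+RANKL against EV and 2 for EV against RANKL at 48 h, 0 for EV against PBS at 72 h and 1 for EV against RANKL at 72 h. A replicate block over both times took the Max change over time with EV+RANKL to -0.39 (adjusted p = 0.071). For these moves the cause was not tested. At 72 h the pairs of groups without RANKL alone correlated above 0.1 and the 3 pairs with it did not, so the numbers were not taken as pairs there. Leaving out 1 library at a time, the number ranged from 1 to 1 for RANKL against PBS at 48 h, 0 to 1 for EV against PBS, 1 to 2 for EV+RANKL against PBS and 0 to 1 for EV against RANKL at 48 h. At 72 h it ranged from 2 to 4 for RANKL against PBS, 0 to 3 for EV against PBS, 0 to 2 for EV+RANKL against RANKL and 1 to 2 for EV against RANKL. Over time it ranged from 0 to 2 in PBS, 0 to 4 with EV and 0 to 2 with RANKL. For the interactions it ranged from 0 to 1 (RANKL with time) and 0 to 2 (EV with time). A group left with 1 library was assumed to vary like the others. At this depth Mlxipl, at most 0.00945 RPKM, was near the limit of detection.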
